A study of Mus musculus with 21 samples.

Results

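The effect of FcMR on gene expression was compared between 4 h and 12 h of treatment. FcMR is a recombinant protein that joins the Fc region of human IgG1 to the extracellular region of the mannose receptor. The control was given as isotype, and no further identity of that protein was stated. The libraries used were all those whose titles name FcMR or isotype at 4 h or 12 h, which gave 12 of the 21 libraries of the series, 3 in each of 4 groups. The 4 groups were isotype 4 h, FcMR 4 h, isotype 12 h and FcMR 12 h. All 4 were bone-marrow-derived macrophages of mice of the C57BL/6J background, differentiated over 7 days with GM-CSF supplied by the supernatant of a producer line. The series' design text describes the cells as deficient in the mannose receptor, so treated and control cells share that deficiency. The other 9 libraries, of untreated cells and of 24 h, entered the fit for the estimate of spread and are not described. The quantity compared was the FcMR effect at 12 h (log2 level with FcMR minus log2 level with isotype) minus the same effect at 4 h, called here the change of the effect. A positive change means that FcMR raised a gene more, or lowered it less, at 12 h than at 4 h.

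The mannose receptor is an endocytic lectin of macrophages, dendritic cells and some endothelial cells that binds sugars and collagens, and it can be shed from the cell surface as a soluble protein. Macrophages that meet an inflammatory stimulus switch on genes in waves: immediate early transcription factors and short-lived cytokine and chemokine mRNAs come first, and genes that need newly made protein or autocrine interferon come later. Feedback inhibitors of NF-κB and the destabilisation of AU-rich mRNAs then lower many of the early transcripts, while others stay high. A comparison of one stimulus at an early and a late time therefore covers genes whose response fades, persists or only appears late.

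Library totals ran from 5532225 to 66729533 counts, so that the level of 3 counts lay between 0.045 and 0.542 CPM without TMM scaling (CPM are counts per library of equal size). Mrc1, which encodes the mannose receptor, had 0 to 11 counts in the 12 libraries, at most 0.576 CPM, and did not pass the filter on low counts. All 9 macrophage markers had counts in all 4 groups and summed to 20629 to 32404 CPM. All neutrophil, dendritic cell, B cell, and mast cell and basophil markers also had counts in all 4 groups. Dendritic cell markers summed to 331 to 499 CPM at 4 h and to 575 to 760 CPM at 12 h over both treatments. Most of this was Ccr7, at 239 to 679 CPM over the 12 libraries, so the sum mainly follows that gene. Erythroid markers summed to 6.54 to 36.2 CPM in isotype 4 h and to 0.563 to 7.14 in FcMR 4 h. At 12 h they summed to 0.928 to 7.00 CPM with isotype and to 1.29 to 7.51 with FcMR. Neutrophil markers summed to 829 to 1365 CPM at 4 h and to 302 to 536 CPM at 12 h over both treatments, and T and NK cell markers to 1.87 to 3.94 CPM. Of the 39 tested markers of other cell types, 0 were called for the change of the effect, against 5.39% of all genes. With so few markers at that share, 0 calls cannot show that the shares of these cells stayed equal. A change in a gene's mRNA per cell cannot be told apart here from a change in the share of cells that hold it.

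GC-rich and GC-poor genes were recovered unequally between libraries, and this followed the library numbers in the titles. The GC tilt of a library was the mean log2 level in the top decile of gene GC content minus that in the bottom decile, relative to all libraries. It was −1.58 to −0.153 in libraries 3350 to 3355 and 0.588 to 0.821 in libraries 3356 to 3361. The lower range held the 3 FcMR 4 h libraries, isotype 4 h replicates 1 and 2 and FcMR 12 h replicate 1. The upper range held isotype 4 h replicate 3, FcMR 12 h replicates 2 and 3 and the 3 isotype 12 h libraries. FcMR 12 h replicate 1 (library 3355) and isotype 4 h replicate 3 (library 3356) stood in each other's place in the numbering, and by correlation of log2 levels each lay nearer to another group than to its own. FcMR 12 h replicate 1 correlated at 0.962 with isotype 4 h and at 0.961 with its own group, and after GC correction at 0.963 and 0.976. Isotype 4 h replicate 3 correlated at 0.968 with isotype 12 h and at 0.944 with its own group, and after GC correction at 0.970 with FcMR 4 h and at 0.965 with its own. The other 10 libraries lay nearest to their own group. For Tnf, a strongly regulated gene taken as an example, both libraries lay with their labels. Tnf was at 1174 CPM in isotype 4 h replicate 3, against 1135 and 862 in its group, and at 482 CPM in FcMR 12 h replicate 1, against 511 and 462. This is 1 gene, and whether the labels of these libraries are right was not tested. The change of the effect cannot be taken within a single range of library numbers. Libraries 3350 to 3355 hold no isotype 12 h, and libraries 3356 to 3361 no FcMR 4 h. Without libraries 3355 and 3356, the effect at 4 h lies wholly within the first range and the effect at 12 h wholly within the last. The change between these effects still spans both ranges. Fits that correct for the tilt or leave these libraries out are given beside the results.

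Of 13468 genes tested, 726 (5.39%) were called for the change of the FcMR effect by edgeR's quasi-likelihood test at an adjusted p under 0.05. The change was higher in 356 genes (2.64%) and lower in 370 (2.75%). FcMR against isotype was called for 2390 genes (17.7%) at 4 h and for 2169 (16.1%) at 12 h, and 1001 genes were called at both times. A call at one time and not at the other was mostly not a called change: of 1389 genes called at 4 h and not at 12 h, 299 (21.5%) were called for the change, and of 1168 called at 12 h and not at 4 h, 250 (21.4%). The smallest change called was 0.32 on the log2 scale. The split by direction differed between fits. With the same test, libraries and filter, a change of factors to RLE called 226 genes with a higher change and 453 with a lower one. The authors' own factors gave 119 and 299. These are set per gene and library, so they shift genes unequally and are not a library scaling alone. DESeq2 gave 322 and 576, the 12 libraries fitted alone 89 and 270, no filter on low counts 76 and 273, and the fit without FcMR 4 h replicate 3 147 and 346. Leaving out single libraries gave counts between 323 (without isotype 12 h replicate 1) and 1422 (without isotype 4 h replicate 3, 688 higher and 734 lower). Of the 726 genes, 322 and 675 were again called in the same direction in these 2 fits. With limma-voom 674 were, with DESeq2 655 and with RLE factors 596. Fewer were with the authors' factors (355), with no filter on low counts (346) and with the 12 libraries alone (344). Without both libraries out of title order, where the effect at each time lies within a single range of library numbers, the count was 884. Of these, 348 were higher and 536 lower, and 590 of the 726 genes were again called in the same direction. The fits that follow are given by the same count. With GC correction the count was 1702, with 794 higher and 908 lower, and 658 of the 726 genes were again called in the same direction. With the range of library numbers as a covariate, an analysis chosen after seeing the data, the count was 1417 and held 724 of the 726. This covariate balances out over the 4 groups of the contrast and so acts mainly on the spread. The calls it kept, here and in the count that follows, are therefore no check on the change. Called in the same direction in this fit and in all 9 others (RLE, DESeq2, limma-voom, the authors' factors, the 12 libraries alone, the replicate block, GC correction, the covariate, and without both libraries) were 234 genes (1.74%), 62 with a higher and 172 with a lower change. The replicates of a group were not stated to be separate cultures or mice, so all p-values measure the spread between these libraries.

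**Figure D1:**
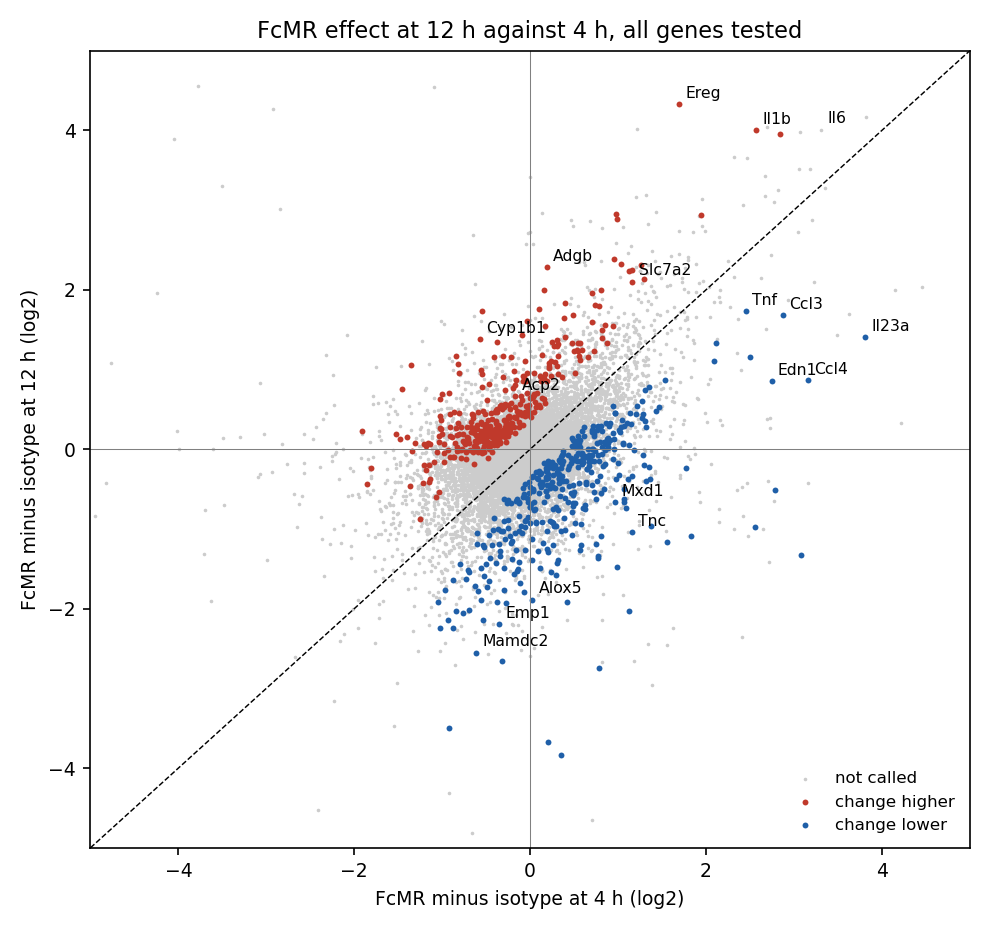
The log2 FcMR effect at 12 h (vertical axis) is plotted against that at 4 h (horizontal axis) for each gene tested. The axes stop at 5 in both directions and leave out 69 genes. Genes on the dashed diagonal had the same effect at both times. Genes called for the change lie off it, above in red and below in blue, and grey points were not called.

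To find which of the 4 group levels moved, each treatment was also compared between 12 h and 4 h. The FcMR level moved more often than the isotype level. In 388 of the 726 genes (53.4%) the FcMR level differed between the times and the isotype level was not called, against 108 (14.9%) where the isotype level alone was called. Both levels moved in the same direction in 198 genes (27.3%), to unequal extents, and in opposite directions in 32 (4.41%). The size of the difference between the times was larger with FcMR in 587 of the 726 genes (80.9%). Among genes whose change was lower, the median difference between 12 h and 4 h was −0.86 with FcMR and −0.01 with isotype, and the median FcMR effect went from 0.37 at 4 h to −0.44 at 12 h. Among genes whose change was higher, these medians were 0.73 and −0.02, and the effect went from −0.39 to 0.33. The isotype medians near 0 join rises and falls. Without sign, the median difference was 0.87 with FcMR and 0.40 with isotype for lower changes, and 0.77 and 0.29 for higher ones. The direction in which the median effect moved was set by choosing genes on their change. These medians also pool genes called at 4 h alone with genes called at 12 h alone. Read as treatment effects, 299 of the 726 (41.2%) were called at 4 h alone and 250 (34.4%) at 12 h alone. The effect kept its sign and was larger at 12 h in 71 genes and smaller in 35, and it had opposite signs in 47. The other 24 were called at neither time.

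The difference between the times within one treatment is nearly the difference between the ranges of library numbers, and the change of the effect is not. Across all genes the time contrast was called for 5426 genes (40.3%) with FcMR, 21.5% higher and 18.8% lower at 12 h, and for 4737 (35.2%) with isotype, 15.9% higher and 19.3% lower, shares that cannot be told apart from the GC tilt. The class of a gene depended on this as well. Without isotype 4 h replicate 3, isotype alone moved in 442 of 1422 called genes (31.1%) and FcMR alone in 624 (43.9%). Without both libraries out of title order these shares were 23.8% and 41.7%, and with the range of library numbers as a covariate 10.4% and 58.2%. FcMR alone stayed the largest class in these fits and with RLE factors and GC correction.

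**Figure D2:**
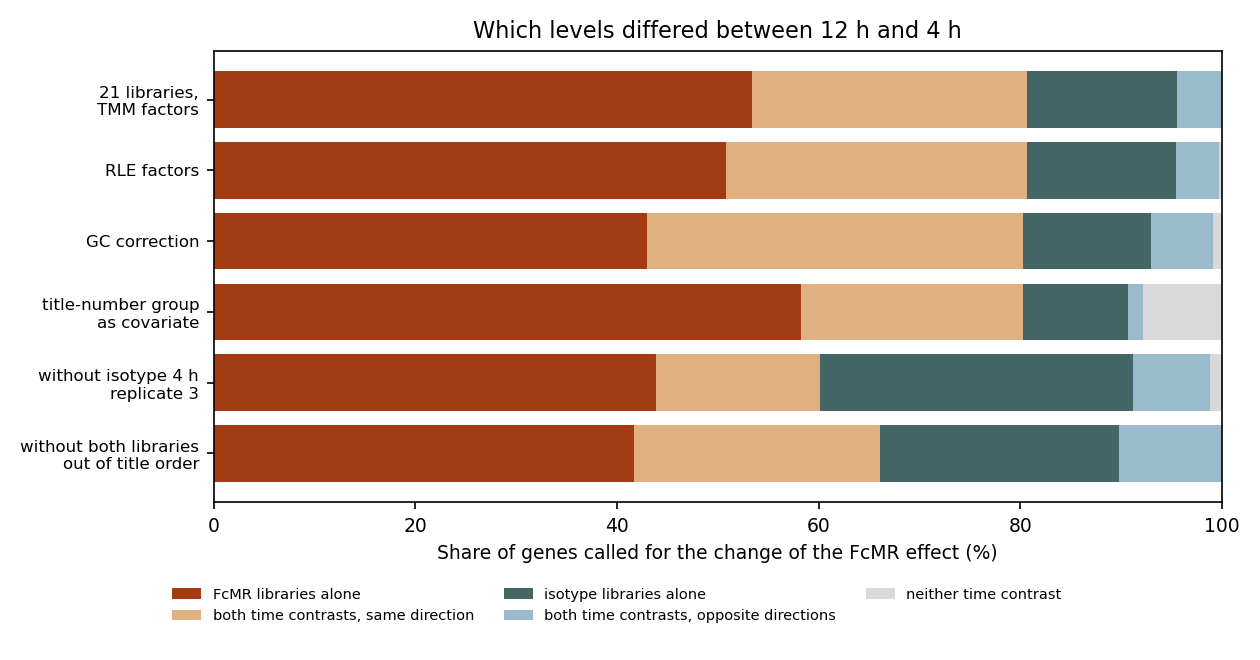
Each bar divides the genes called for the change of the FcMR effect in one fit, in percent, by which treatment's level was called between 12 h and 4 h. The dark red segment, FcMR libraries alone, is 53.4% in the fit of 21 libraries with TMM factors and the largest in each bar, and the dark green segment, isotype libraries alone, widens from 14.9% to 31.1% without isotype 4 h replicate 3.

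Of the 17 gene lists, the inflammatory cytokines had the highest median FcMR effect at both times, 2.50 at 4 h and 1.70 at 12 h, and their changes went both ways. Of 23 tested members, 22 were higher with FcMR at 4 h and 19 at 12 h, where 8.62% and 8.61% of all genes were. A lower effect was called for 9.13% and 7.49% of all genes and for 0 and 1 of these members. The change was lower in 6 members, Il23a, Tnfsf15, Csf1, Osm, Tnf and Ifnb1, and higher in 1, Il1b, against 2.75% and 2.64% of all genes. The list's median change was −0.16 against 0.05 over all genes. Over all alternative fits the list's median ran from −0.40 to 0.20, so that it has no stable sign. Il23a (ENSMUSG00000025383.2, chromosome 10, 128296139 to 128298752) encodes the p19 subunit of interleukin 23. Il23a was at 6.32, 6.13 and 5.45 CPM in the isotype libraries of 4 h and at 74.9, 89.00 and 86.3 in the FcMR libraries, and at 12 h it was at 0.28, 0.293 and 0.182 with isotype and at 0.734, 0.437 and 0.583 with FcMR. All 4 groups were apart from each other, and both 12 h groups lay below both 4 h groups. No 12 h library had more than 12 counts of Il23a. Isotype 12 h replicate 2 lay under its level of 3 counts, 0.449 CPM without TMM scaling. The sizes of the 12 h effect, of the falls and of the change rest on these low counts. The FcMR effect on Il23a was 3.81 at 4 h and 1.41 at 12 h, a change of −2.40 (SE 0.41, adjusted p = 0.00237). The level fell by 7.12 on the log2 scale with FcMR and fell by 4.72 with isotype.

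Tnf (ENSMUSG00000024401.14, chromosome 17, 35199381 to 35202007), the early cytokine tumour necrosis factor, fell in both treatments too. Tnf was at 1135, 862 and 1174 CPM in the isotype libraries of 4 h and at 5762, 6087 and 5521 in the FcMR libraries, and at 12 h it was at 141, 147 and 149 with isotype and at 482, 511 and 462 with FcMR. FcMR libraries were above isotype libraries at both times, with effects of 2.45 and 1.74, and the change was −0.72 (SE 0.15, adjusted p = 0.00918). Il1b (ENSMUSG00000027398.13, chromosome 2, 129364570 to 129371139), the precursor of interleukin 1 beta, moved in the opposite sense. Il1b was at 1035, 1108 and 768 CPM in the isotype libraries of 4 h and at 5596, 6070.2 and 5638 in the FcMR libraries, and at 12 h it was at 146, 158 and 145 with isotype and at 2865, 2256 and 2062 with FcMR. Its level dropped by 2.70 with isotype and by 1.27 with FcMR, so the distance between the groups widened from 2.57 to 4.00, a change of 1.43 (SE 0.20, adjusted p = 0.000595). Il6, another early cytokine, was far higher with FcMR at both times and was not called for a change. Il6 was at 149, 146 and 103 CPM in the isotype libraries of 4 h and at 1341, 1301 and 1299 in the FcMR libraries, and at 12 h it was at 12.2, 12.9 and 14.02 with isotype and at 254, 202 and 176 with FcMR. Its effects were 3.31 and 4.01, and the difference of 0.70 (SE 0.31, adjusted p = 0.212) did not pass the test. In the same libraries there was a smaller distance for Tnf, a larger one for Il1b and no called difference for Il6.

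Of the other cytokines, Tnfsf15, a TNF family ligand, had a change of −1.35 (adjusted p = 0.00306), from an effect of 2.50 to 1.15. Csf1, the macrophage growth factor M-CSF, went from 0.89 to 0.03, a change of −0.86 (adjusted p = 0.00162). Osm, oncostatin M, had a change of −0.75 (adjusted p = 0.0325) and kept its call in 4 of the 12 fits that left out 1 library. Ifnb1, interferon beta, was near the limit of counting: it was at 3.12, 4.33 and 3.35 CPM with FcMR at 4 h, at 1.01, 0.18 and 0.348 with isotype at 4 h, and at 0.146 to 0.242 CPM in the 12 h libraries. None of the 3 FcMR libraries of 12 h had more than 3 counts, so its fitted change is not given. Ifnb1 lost the call in 11 of the 12 fits without 1 library (highest adjusted p = 0.151). It was also not called in 3 of the 9 alternative fits listed above. Of these, DESeq2 gave it no adjusted p, and the highest adjusted p of the others was 0.0957.

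The called chemokines all had a smaller or lost FcMR effect at 12 h. Of 21 tested, 15 were higher with FcMR at 4 h and 13 at 12 h, against 8.62% and 8.61% of all genes. A lower change was called for 4 (Ccl4, Ccl7, Ccl2 and Ccl3) and a higher one for none, against 2.75% and 2.64% of all genes. The list's median change was −0.19 and stayed between −0.40 and −0.10 in every alternative fit. Ccl3 and Ccl4 encode the neighbouring inflammatory chemokines MIP-1α and MIP-1β. Ccl4 (ENSMUSG00000018930.3, chromosome 11, 83662584 to 83664683) was at 253, 171 and 305 CPM in the isotype libraries of 4 h and at 2241, 2379 and 1878 in the FcMR libraries, and at 12 h it was at 51.9, 46.9 and 36.98 with isotype and at 84.8, 93.2 and 69.7 with FcMR. The groups did not overlap at either time, and the effect went from 3.16 to 0.87, a change of −2.29 (SE 0.27, adjusted p = 0.000131). Ccl3 was at 575, 486 and 535 CPM in the isotype libraries of 4 h and at 4220.4, 3946 and 3537 in the FcMR libraries, and at 12 h it was at 115, 108 and 90.1 with isotype and at 366, 355 and 283 with FcMR. For Ccl3 the effects were 2.87 and 1.68, and the change was −1.19 (SE 0.15, adjusted p = 0.000206). Ccl2 and Ccl7 attract monocytes. Ccl2 was at 89.3, 96.9 and 79.1 CPM in the isotype libraries of 4 h and at 235, 249 and 194 in the FcMR libraries, and at 12 h it was at 85.6, 61.5 and 40.2 with isotype and at 62.6, 55.8 and 41.9 with FcMR. The Ccl2 groups were apart at 4 h and overlapped at 12 h, with effects of 1.36 and −0.22 and a change of −1.58 (SE 0.35, adjusted p = 0.0141). With FcMR, Ccl2 differed by −2.08 between the times, and with isotype by −0.51, which was not called. Ccl7 showed the same order of groups, with effects of 1.36 and −0.38 and a change of −1.74 (SE 0.37, adjusted p = 0.0118).

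**Figure D3:**
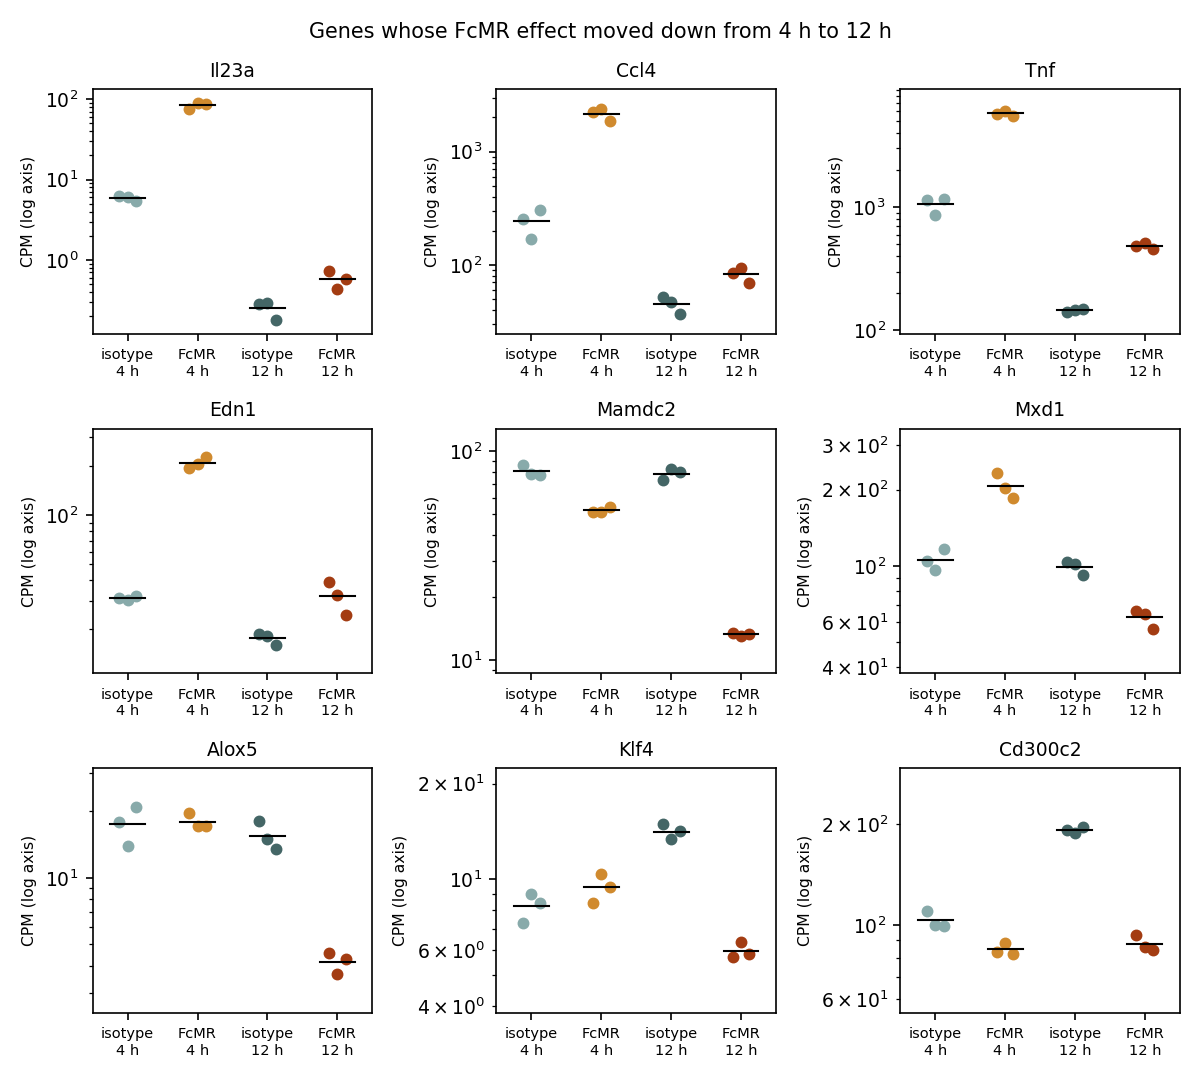
CPM after TMM scaling (log axis, each panel with its own range) is shown for 9 genes with a lower change, with 1 point per library and a line at the mean of the 3 libraries of a group. Il23a, Ccl4, Tnf and Edn1 fell in both treatments, Mamdc2, Alox5 and Mxd1 differed between the times in the FcMR libraries, and Klf4 and Cd300c2 were higher with isotype at 12 h than at 4 h.

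Among the 26 feedback inhibitors of NF-κB and signalling, 14 were higher with FcMR at 4 h and 15 at 12 h (8.62% and 8.61% of all genes). A lower change was called for 3 and a higher one for 1, against 2.75% and 2.64% of all genes. Their median change was −0.12 and ran from −0.51 to 0.09 over the alternative fits. Nfkbiz encodes the nuclear cofactor IκBζ. Nfkbiz was at 138, 101 and 149 CPM in the isotype libraries of 4 h and at 544, 591 and 553 in the FcMR libraries, and at 12 h it was at 17.8, 18.6 and 17.4 with isotype and at 46.7, 48.8 and 40.3 with FcMR. The groups were apart at both times, with effects of 2.12 and 1.34 and a change of −0.78 (SE 0.16, adjusted p = 0.00988). Nfkbid, a related nuclear protein, had effects of 0.71 and −0.44 and a change of −1.15 (SE 0.26, adjusted p = 0.0158), and Dusp5, a phosphatase of ERK kinases, a change of −0.72 (adjusted p = 0.0183), called in 7 of the 9 alternative fits. Irak3, an inhibitor of Toll-like receptor signalling, had the higher change. Irak3 was at 79.8, 87.3 and 77.5 CPM in the isotype libraries of 4 h and at 146, 129 and 129 in the FcMR libraries, and at 12 h it was at 55.2, 58.97 and 60.6 with isotype and at 151, 128 and 132 with FcMR. With FcMR the level differed by 0.03 between the times, and with isotype it fell by 0.48 on the log2 scale, so the effect went from 0.72 to 1.23, a change of 0.51 (SE 0.12, adjusted p = 0.0171). This gene lost the call in 7 of the 12 fits without 1 library (highest adjusted p = 0.104) and in 2 of the 9 alternative fits listed above (highest adjusted p = 0.116).

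Of 24 immediate early and AP-1 factors, 5 (Nr4a3, Klf4, Egr1, Fos and Atf3) had a lower change and none a higher one (2.75% and 2.64% of all genes). At 4 h, 5 members were higher and 2 lower with FcMR (8.62% and 9.13% of all genes), and at 12 h 4 were higher and 7 lower (8.61% and 7.49%). The 2 lower at 4 h are near the share of all genes. Their median change was −0.15 and ran from −0.75 to −0.07 over the alternative fits. Nr4a3 encodes an orphan nuclear receptor of early activation. Nr4a3 was at 205, 219.5 and 186 CPM in the isotype libraries of 4 h and at 477, 483 and 398 in the FcMR libraries, and at 12 h it was at 112, 111 and 86.4 with isotype and at 93.1, 80.8 and 70.5 with FcMR. The FcMR libraries were above the isotype libraries at 4 h and the groups overlapped at 12 h, with effects of 1.16 and −0.34 and a change of −1.49 (SE 0.21, adjusted p = 0.000504). Klf4, a zinc finger factor, followed another course. Klf4 was at 7.32, 9.02 and 8.46 CPM in the isotype libraries of 4 h and at 8.43, 10.4 and 9.50 in the FcMR libraries, and at 12 h it was at 14.9, 13.3 and 14.2 with isotype and at 5.72, 6.37 and 5.83 with FcMR. Its groups overlapped at 4 h and were apart at 12 h, where FcMR was lower. The isotype level rose by 0.78 between the times and the FcMR level fell by 0.66 on the log2 scale, and the change was −1.44 (SE 0.19, adjusted p = 0.000446). Fos and Egr1, textbook immediate early genes, had effects of −0.93 and 0.35 at 4 h and of −2.14 and −1.03 at 12 h, changes of −1.22 (adjusted p = 0.00867) and −1.38 (adjusted p = 0.00767). Atf3, a repressor of inflammatory genes, had a change of −0.67 (adjusted p = 0.00592).

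FcMR raised most type I interferon-stimulated genes at both times. Of 32 members, 30 were higher with FcMR at 4 h and 19 at 12 h, against 8.62% and 8.61% of all genes. None was lower at either time, against 9.13% and 7.49% of all genes. The median effect was 1.01 at 4 h and 0.59 at 12 h. For the change itself, 4 (Zbp1, Cmpk2, Usp18 and Stat2) were called, all lower, where 2.75% of all genes were lower and 2.64% higher. A positive value was found in 3 of 32, against 7378 of all 13468 genes. The list's median change was −0.38, against 0.05 over all genes, and stayed between −0.51 and −0.30 in every alternative fit. The count of called members was less firm and ran from 0 to 17 lower. Cmpk2 encodes a mitochondrial nucleotide kinase. Cmpk2 was at 451, 463 and 468 CPM in the isotype libraries of 4 h and at 1354, 1311 and 1344 in the FcMR libraries, and at 12 h it was at 168, 173 and 173 with isotype and at 366, 309 and 263 with FcMR. Its effects were 1.54 and 0.86, and the change of −0.67 (SE 0.19, adjusted p = 0.0474) lost its call in 10 of the 12 fits without 1 library (highest adjusted p = 0.117). Zbp1, a sensor of nucleic acids, rose between the times with isotype, and its difference with FcMR was not called. Zbp1 was at 123, 106 and 141 CPM in the isotype libraries of 4 h and at 302, 289 and 273 in the FcMR libraries, and at 12 h it was at 222, 224 and 234 with isotype and at 322, 331 and 341 with FcMR. The change of Zbp1 was −0.67 (SE 0.17, adjusted p = 0.0269), and it lost the call in 5 of the 12 fits without 1 library (highest adjusted p = 0.0656). Interferon gamma-type GTPases and antigen presentation genes had 17 of 29 members higher with FcMR at 4 h and 13 at 12 h (8.62% and 8.61% of all genes). For the change, 0 were called, against 5.39% of all genes, with a list median of −0.13. Over the alternative fits this list had up to 4 lower calls and up to 1 higher call, both reached with GC correction, and without isotype 4 h replicate 3 it had 3 lower and 1 higher. The member with the smallest p-value, H2-Aa, a class II MHC chain, had effects of 0.34 and −0.12 and a difference of −0.46 (SE 0.13, adjusted p = 0.0505) that just missed the threshold. It was called in 7 of the 9 alternative fits listed above, where its adjusted p ran from 0.00244 with DESeq2 to 0.0756 with the 12 libraries alone.

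Enzymes of arginine use and lipid mediators moved in both directions. Of 17 members, Slc7a2, Ptges and Sod2 had a higher change and Alox5, Ptgs1, Ass1 and Alox5ap a lower one (2.64% and 2.75% of all genes). Slc7a2 (ENSMUSG00000031596.15, chromosome 8, 40862396 to 40922308) encodes a transporter of arginine. Slc7a2 was at 1678, 1756 and 1608 CPM in the isotype libraries of 4 h and at 3440.2, 3703 and 4149 in the FcMR libraries, and at 12 h it was at 659.6, 710.0 and 733 with isotype and at 3145, 2876 and 3006 with FcMR. FcMR libraries were above isotype libraries at both times. With isotype the level fell by 1.26 on the log2 scale and with FcMR by 0.32, so the effect went from 1.16 to 2.10, a change of 0.94 (SE 0.15, adjusted p = 0.00167). Alox5 (ENSMUSG00000025701.12, chromosome 6, 116410077 to 116461178), the 5-lipoxygenase that begins leukotriene synthesis, had overlapping levels in 3 groups and a lower one with FcMR at 12 h. Alox5 was at 17.95, 13.9 and 20.97 CPM in the isotype libraries of 4 h and at 19.6, 17.2 and 17.1 in the FcMR libraries, and at 12 h it was at 18.1, 14.96 and 13.4 with isotype and at 4.55, 3.67 and 4.27 with FcMR. The groups overlapped at 4 h, where the effect was 0.02, and were apart at 12 h, where it was −1.89, a change of −1.91 (SE 0.32, adjusted p = 0.00229). Alox5ap, its activating protein, had a change of −0.70 (adjusted p = 0.0279), called in 5 of 12 fits without 1 library and in 7 of the 9 alternative fits. The cyclooxygenase Ptgs1 rose between the times with isotype, and its difference with FcMR was not called. Ptgs1 was at 18.96, 22.7 and 17.4 CPM in the isotype libraries of 4 h and at 13.5, 11.2 and 11.4 in the FcMR libraries, and at 12 h it was at 36.4, 29.5 and 31.7 with isotype and at 10.7, 11.96 and 11.6 with FcMR. Its effects of −0.70 and −1.51 gave a change of −0.81 (SE 0.16, adjusted p = 0.0079). Ptges, a prostaglandin E synthase, rose between the times in both treatments, by 2.10 with FcMR and 1.04 with isotype, and its change of 1.06 (SE 0.27, adjusted p = 0.0322) lost its call in 9 of the 12 fits without 1 library (highest adjusted p = 0.0959) and in 2 of the 9 alternative fits listed above (highest adjusted p = 0.45).

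**Figure D4:**
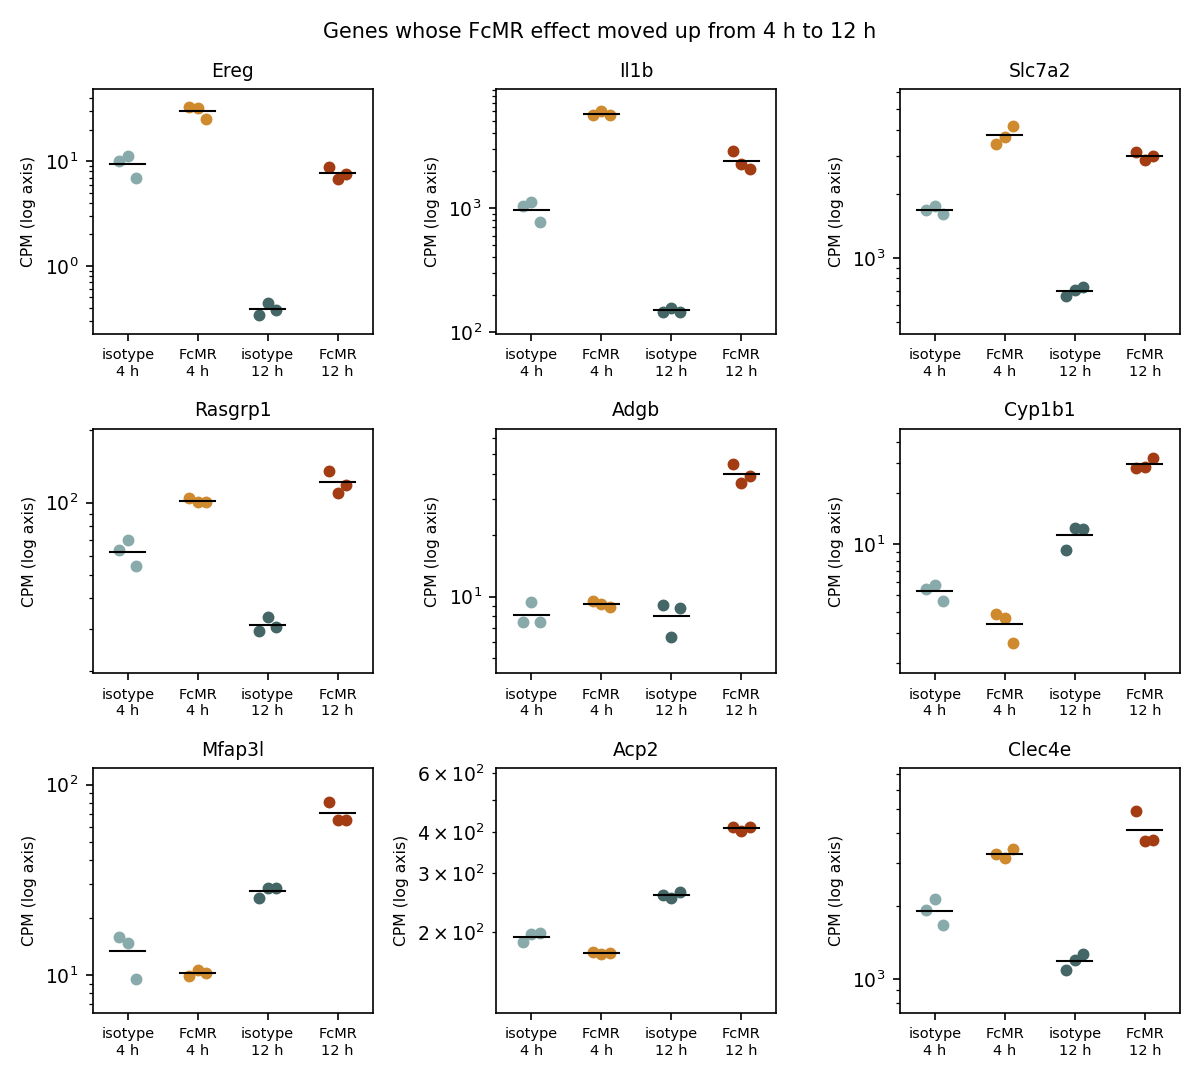
CPM after TMM scaling (log axis, each panel with its own range) is shown for 9 genes with a higher change, with 1 point per library and a line at the mean of the 3 libraries of a group. Ereg, Il1b and Slc7a2 were lower with isotype at 12 h than at 4 h by more than with FcMR, Rasgrp1 was lower at 12 h with isotype and not with FcMR, and Adgb, Cyp1b1, Mfap3l and Acp2 were highest with FcMR at 12 h.

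Tissue remodelling genes and EGF-family ligands held the called gene with the highest change among the named genes and 4 called lower ones. Over all genes, 2.64% had a higher and 2.75% a lower change. Of 24 members, FcMR was called above isotype in 13 and below it in 1 at 4 h (8.62% and 9.13% of all genes), while at 12 h it was above in 10 and below in 5 (8.61% and 7.49%). The list's median change was −0.27 and stayed between −0.45 and −0.22. Ereg (ENSMUSG00000029377.5, chromosome 5, 91074622 to 91093646) encodes epiregulin, a ligand of the EGF receptor. Ereg was at 10.1, 11.2 and 6.95 CPM in the isotype libraries of 4 h and at 32.8, 32.1 and 25.2 in the FcMR libraries, and at 12 h it was at 0.337, 0.44 and 0.379 with isotype and at 8.73, 6.72 and 7.63 with FcMR. FcMR libraries were above isotype libraries at both times. With isotype the level fell by 4.61 on the log2 scale and with FcMR by 1.97, so the effect rose from 1.69 to 4.33, a change of 2.64 (SE 0.39, adjusted p = 0.000817). Isotype 12 h replicate 2, at 0.44 CPM, was at about its level of 3 counts, 0.449 CPM without TMM scaling. The sizes of the isotype fall and of the change of Ereg therefore rest on low counts. Edn1 (ENSMUSG00000021367.8, chromosome 13, 42301476 to 42307990), the precursor of the vasoconstrictor peptide endothelin 1, changed the other way. Edn1 was at 31.3, 30.3 and 31.9 CPM in the isotype libraries of 4 h and at 196, 206 and 227 in the FcMR libraries, and at 12 h it was at 18.8, 18.3 and 16.2 with isotype and at 38.97, 32.7 and 24.4 with FcMR. Edn1 groups did not overlap at either time, and the effect went from 2.75 to 0.85, a change of −1.90 (SE 0.23, adjusted p = 0.000131). F3, tissue factor, which starts coagulation, had effects of 0.39 and −0.86 and a change of −1.25 (SE 0.20, adjusted p = 0.00168). Plau, urokinase, and Timp2, an inhibitor of metalloproteinases, had changes of −0.70 (adjusted p = 0.0129) and −0.74 (adjusted p = 0.00317), with FcMR lower than isotype at 12 h for both. Timp2 was called in 8 of the 9 alternative fits.

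Surface receptors for microbes, antibodies and chemokines had 5 higher and 5 lower changes among 30 members, against 2.64% and 2.75% of all genes. The list's median was −0.12. The higher ones were Clec4e, Fpr1, Tlr2, Fpr2 and Fcgr2b, which sense glycolipids, formyl peptides and lipopeptides or, for Fcgr2b, inhibit through IgG. Clec4e encodes the lectin Mincle. Clec4e was at 1927, 2140.1 and 1677 CPM in the isotype libraries of 4 h and at 3277, 3162 and 3420.2 in the FcMR libraries, and at 12 h it was at 1089.5, 1203 and 1264 with isotype and at 4937, 3712 and 3743 with FcMR. The groups were apart at both times, the isotype level fell by 0.69 on the log2 scale between the times and the FcMR level differed by 0.33, which was not called. The change was 1.02 (SE 0.20, adjusted p = 0.00726). Tlr2 went from an effect of 0.21 to 1.04, a change of 0.82 (adjusted p = 0.00161), and Fpr1 from 0.70 to 1.59, a change of 0.89 (SE 0.22, adjusted p = 0.0267) that lost its call in 8 of the 12 fits without 1 library (highest adjusted p = 0.0967) and in 2 of the 9 alternative fits listed above (highest adjusted p = 0.122). Fpr2 and Fcgr2b kept their calls in 1 and 2 of the 12 fits without 1 library and in 5 and 6 of the 9 alternative fits. Neutrophils also express Fpr1 and Fpr2, and the neutrophil markers summed to less at 12 h than at 4 h in both treatments, as given above. Their part in these changes was not tested.

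The receptors with a lower change included C3ar1, Fcgr1, Mertk and Itgam. C3ar1 is the receptor of the complement fragment C3a. C3ar1 was at 109, 119 and 90.9 CPM in the isotype libraries of 4 h and at 86.8, 84.6 and 89.4 in the FcMR libraries, and at 12 h it was at 121, 98.4 and 95.3 with isotype and at 37.3, 28.2 and 27.2 with FcMR. FcMR 12 h was the low group, the effect went from −0.29 to −1.77, and the change was −1.47 (SE 0.21, adjusted p = 0.000559). Fcgr1, the high-affinity IgG receptor, and Mertk, a receptor for apoptotic cells, were higher with FcMR at 4 h, by 0.78 and 0.67, and had effects of −0.07 and −0.15 at 12 h. Their changes were −0.84 (adjusted p = 0.00252) and −0.82 (adjusted p = 0.000488). Itgam, the integrin CD11b, had a change of −0.65 (adjusted p = 0.0376), called in 4 of the 12 fits without 1 library and in 7 of the 9 alternative fits. Itgam and Fcgr1 are also among the 9 macrophage markers, of which these 2 were called, against 5.39% of all genes. Reads shared with near-identical family members could be split differently in the Fcgr, Fpr and Cd300 genes.

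Lipid handling genes had 5 lower (Fabp4, Pparg, Hilpda, Plin2 and Fabp5) and 2 higher changes (Acsl5 and Acsl1) among 23 members, against 2.75% and 2.64% of all genes. At 4 h FcMR was called below isotype in 7 members and above it in 3. At 12 h it was below in 9 and again above in 3, and the shares over all genes are those given for the tissue remodelling list. Fabp4 encodes a fatty acid carrier of macrophages and adipocytes. Fabp4 was at 87.5, 99.03 and 76.00 CPM in the isotype libraries of 4 h and at 77.3, 69.5 and 81.8 in the FcMR libraries, and at 12 h it was at 89.9, 68.7 and 81.9 with isotype and at 36.5, 26.4 and 30.1 with FcMR. The groups overlapped at 4 h and were apart at 12 h, with effects of −0.20 and −1.37 and a change of −1.17 (SE 0.17, adjusted p = 0.000792). Pparg, the nuclear receptor that controls Fabp4, was lower with FcMR at both times (−0.70 and −1.54), and its change of −0.84 (SE 0.23, adjusted p = 0.0424) lost its call in 11 of the 12 fits without 1 library (highest adjusted p = 0.132) and in 4 of the 9 alternative fits listed above (highest adjusted p = 0.186). The lipid droplet genes Plin2 and Hilpda had changes of −0.50 (adjusted p = 0.0356) and −0.77 (adjusted p = 0.0158). Acsl1, an acyl-CoA synthetase, rose in both treatments and more with FcMR. Acsl1 was at 334, 375 and 296 CPM in the isotype libraries of 4 h and at 698, 637 and 603 in the FcMR libraries, and at 12 h it was at 465, 486 and 468 with isotype and at 1480.0, 1327 and 1354 with FcMR. Its change was 0.60 (SE 0.12, adjusted p = 0.00947) and lost the call without FcMR 4 h replicate 3 (adjusted p = 0.0713). Acsl5, another enzyme of this kind, had a change of 0.67 (SE 0.15, adjusted p = 0.0124) and lost the call without isotype 12 h replicate 1 (adjusted p = 0.0572). With the authors' factors and with the 12 libraries alone Acsl1 was not called.

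Called for the change were 3 members of the DNA replication and G1/S list, 2 of the glycolysis and hypoxia list and 2 of the alternative activation list, against 5.39% of all genes. Among 27 DNA replication and G1/S genes, Tyms, thymidylate synthase, had a higher change and E2f2, a transcription factor of the cycle, and Pcna, the polymerase clamp, lower ones. E2f2 was at 9.03, 7.04 and 6.95 CPM with isotype and 1.98, 2.10 and 1.99 with FcMR at 12 h, while at 4 h its groups overlapped, and its change was −1.64 (SE 0.26, adjusted p = 0.00142). Pcna had a change of −0.38 (SE 0.11, adjusted p = 0.0472) and Tyms of 0.99 (SE 0.26, adjusted p = 0.033), and each lost the call in 8 of the 12 fits without 1 library and with the authors' factors (adjusted p = 0.389 and 0.124). Of 23 glycolysis and hypoxia genes, Pfkp, a phosphofructokinase, and Ndrg1, a stress-response gene, had a lower change. Pfkp was at 338, 297 and 316 CPM in the isotype libraries of 4 h and at 472, 507 and 463 in the FcMR libraries, and at 12 h it was at 232, 246 and 230.3 with isotype and at 218, 232 and 216 with FcMR. FcMR was higher at 4 h and overlapped isotype at 12 h, and the change was −0.69 (SE 0.10, adjusted p = 0.000867). Ndrg1 was higher with FcMR at both times (1.35 and 0.78) and had a change of −0.57 (SE 0.15, adjusted p = 0.0376), which was not called in 7 of the fits without 1 library, with the authors' factors or with the 12 libraries alone (highest adjusted p = 0.143). The list's median was −0.34 and stayed between −0.45 and −0.25. Alternative activation genes had 2 of 19 called, Klf4 and Pdcd1lg2, both lower, and a median of −0.52 that stayed between −0.68 and −0.35.

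No member was called for the change in the lists of mitosis (27), NRF2 and heme-iron genes (18), ATF4 and unfolded protein response (20) and sterol synthesis (22), against 5.39% of all genes. Their median changes were −0.21, 0.21, 0.05 and −0.07, against 0.05 over all genes. With GC correction, 4 NRF2 and heme-iron genes and 2 ATF4 and unfolded protein response genes were called higher, and 1 mitosis and 1 sterol synthesis gene lower. GC correction with the replicate block called 5 NRF2 and heme-iron genes higher and 1 lower. The NRF2 and heme-iron median ran from −0.0014 to 0.31 over the alternative fits. The members with the smallest p-values were Cenpe, a kinetochore motor, with −1.04 (SE 0.47, adjusted p = 0.226), Gsr, glutathione reductase, with 0.34 (SE 0.12, adjusted p = 0.121), Asns, asparagine synthetase, with 0.75 (SE 0.23, adjusted p = 0.0728), and Stard4, a sterol carrier, with 0.43 (SE 0.16, adjusted p = 0.137). In sterol synthesis both treatments were lower at 12 h than at 4 h to a like extent, with median differences of −1.19 with FcMR and −1.22 with isotype. Mitosis genes showed median differences of −1.63 and −1.44. These shifts between the times, shared by both treatments and lying along the library numbers, came with no called change of the FcMR effect outside the fits just named and a few others with 1 call in a list.

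**Figure D5:**
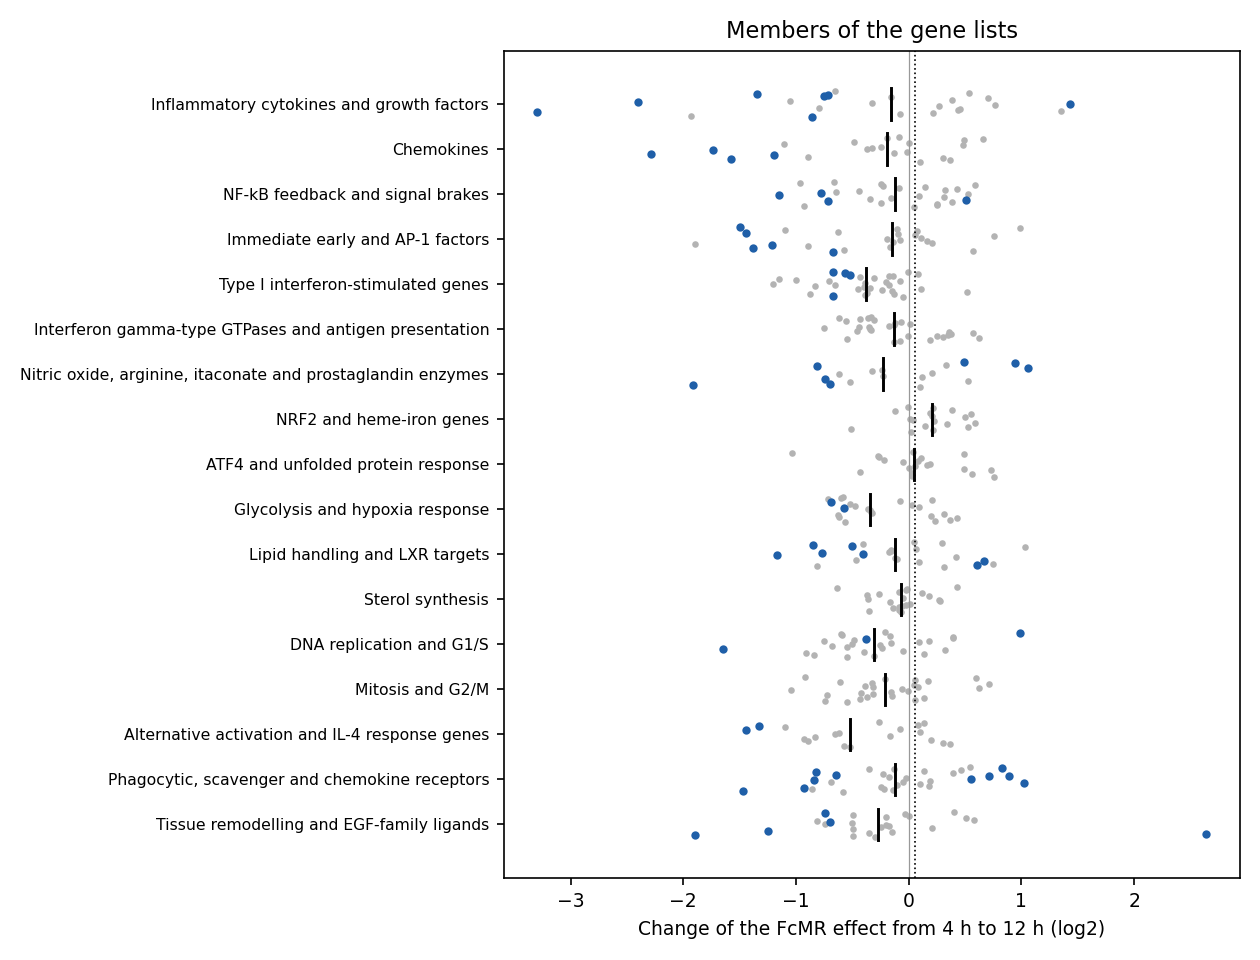
Each point is the log2 change of the FcMR effect from 4 h to 12 h of 1 gene of a list, blue where it was called and grey where it was not, with a bar at the list's median and a dotted line at 0.05, the median of all genes tested. Cytokines reach from Il23a and Ifnb1 on the left to Il1b on the right, and 5 lists hold no called gene.

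By the naming rule, the 10 genes with the lowest change were Il23a, Ccl4, Tnc, Cd300ld3, Jaml, Pgf, Mamdc2, Alox5, Edn1 and Tnfsf13 (−2.40 to −1.88), and those with the highest were Ereg, Insm1, Adgb, Cd247, Cyp1b1, Pdgfrb, Gp6, Mfap3l, Fam120c and Pfn2 (2.64 to 1.70). For these 20 genes RefSeq promoters (GRCm38.p6, 250 bases before to 50 after the start) were looked up, and 14 had an entry. An NF-κB-type site (GGGA, 4 bases of any kind, CC), searched like the others on both strands, was found in 5 of the 14, against 20.7% of all 32851 promoters in the table. An interferon-response-type element (GAAA, 2 bases of any kind, GAAA) was found in 2 (3.44% of all), TGANTCA, an AP-1 site, in 1 (7.81%) and CACGTG, an E-box, in 1 (7.15%). With 14 promoters these counts describe the set only. The 250 bases before the start are shown for the pair with the highest and the pair with the lowest change that had an entry, so that both ends of the comparison can be read, 5′ to 3′ on the gene's strand and with the NF-κB-type matches in capitals. Cd300ld3 held 2 such matches, of which the one before the start is shown. None of the 4 motifs was found in the window of Cd247 or Tnc.
Adgb (chr10:10472400-10472649, minus strand): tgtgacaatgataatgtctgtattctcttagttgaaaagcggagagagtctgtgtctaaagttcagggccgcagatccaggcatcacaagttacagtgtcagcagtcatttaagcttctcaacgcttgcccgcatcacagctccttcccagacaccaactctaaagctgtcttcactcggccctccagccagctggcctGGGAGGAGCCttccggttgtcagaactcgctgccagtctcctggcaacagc
Cd247 (chr1:165788431-165788680, plus strand): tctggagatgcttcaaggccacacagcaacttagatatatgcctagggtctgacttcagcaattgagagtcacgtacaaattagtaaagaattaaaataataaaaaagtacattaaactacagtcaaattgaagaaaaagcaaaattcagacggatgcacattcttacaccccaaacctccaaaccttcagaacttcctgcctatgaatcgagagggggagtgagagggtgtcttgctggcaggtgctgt
Tnc (chr4:64047016-64047265, minus strand): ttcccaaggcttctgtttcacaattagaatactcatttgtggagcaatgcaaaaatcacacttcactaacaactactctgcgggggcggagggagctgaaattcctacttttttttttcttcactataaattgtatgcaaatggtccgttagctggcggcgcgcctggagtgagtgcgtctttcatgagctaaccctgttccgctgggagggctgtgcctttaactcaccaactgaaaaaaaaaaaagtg
Cd300ld3 (chr11:115048331-115048580, minus strand): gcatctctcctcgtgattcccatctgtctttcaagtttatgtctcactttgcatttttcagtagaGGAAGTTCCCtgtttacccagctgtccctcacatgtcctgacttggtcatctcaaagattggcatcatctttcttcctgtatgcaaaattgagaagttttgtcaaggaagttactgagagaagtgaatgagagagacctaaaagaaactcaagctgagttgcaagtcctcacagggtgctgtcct

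Adgb (ENSMUSG00000050994.20, chromosome 10, 10335703 to 10472326), a member of the globin family, was one of the genes in which a single group stood out. Adgb was at 7.47, 9.38 and 7.53 CPM in the isotype libraries of 4 h and at 9.49, 9.22 and 8.94 in the FcMR libraries, and at 12 h it was at 9.14, 6.31 and 8.75 with isotype and at 44.6, 36.3 and 39.2 with FcMR. FcMR 12 h was high and the other 3 groups overlapped, with effects of 0.19 and 2.28 and a change of 2.09 (SE 0.25, adjusted p = 0.000112). Cyp1b1, a cytochrome P450 enzyme, was higher at 12 h in both treatments. Cyp1b1 was at 5.46, 5.77 and 4.63 CPM in the isotype libraries of 4 h and at 3.90, 3.69 and 2.61 in the FcMR libraries, and at 12 h it was at 9.25, 12.5 and 12.3 with isotype and at 28.1, 28.6 and 32.01 with FcMR. The groups were apart at 4 h with FcMR lower, where the effect of −0.58 was not called, and at 12 h with FcMR higher, by 1.39. Its change was 1.96 (SE 0.31, adjusted p = 0.00155). Mfap3l had the same order of groups at 12 h and a change of 1.72 (SE 0.24, adjusted p = 0.000513). Gp6, a collagen receptor of platelets, Pdgfrb, a PDGF receptor, and Cd247, the zeta chain of the T cell receptor, were at 9.26 to 12.1, 7.93 to 14.5 and 14.9 to 16.7 CPM with FcMR at 12 h and at most 2.79, 4.401 and 8.84 CPM in the other groups. Their changes were 1.85 (SE 0.46, adjusted p = 0.0266), 1.91 (SE 0.43, adjusted p = 0.0168) and 1.98 (SE 0.51, adjusted p = 0.033). Cd247 lost the call in 11 of the 12 fits without 1 library, Gp6 in 7 and Pdgfrb without isotype 12 h replicate 1 (adjusted p = 0.0587), and T and NK cell markers summed to at most 3.94 CPM in these libraries. Gp6 was also not called with the authors' factors (adjusted p = 0.269) or the 12 libraries alone, and Cd247 without both libraries out of title order (adjusted p = 0.0605). Insm1, a transcription factor, lost its call in 11 fits without 1 library and in 3 of the 9 alternative fits (adjusted p of at most 0.121). Fam120c and Pfn2, a profilin, were lower with FcMR at 4 h (−1.53 and −1.01) and not called at 12 h. Their changes were 1.72 (SE 0.36, adjusted p = 0.0109) and 1.70 (SE 0.36, adjusted p = 0.0101), and Fam120c lost the call without isotype 4 h replicate 2 (adjusted p = 0.0511).

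Mamdc2 (ENSMUSG00000033207.6, chromosome 19, 23302609 to 23448442), which encodes a secreted protein with MAM domains, had the smallest p-value of the change. Mamdc2 was at 85.7, 78.1 and 76.7 CPM in the isotype libraries of 4 h and at 51.4, 51.3 and 54.4 in the FcMR libraries, and at 12 h it was at 72.9, 82.00 and 79.5 with isotype and at 13.5, 13.01 and 13.4 with FcMR. The isotype levels of the 2 times overlapped, FcMR was lower at 4 h and lower still at 12 h, with effects of −0.62 and −2.55, and the change was −1.94 (SE 0.12, adjusted p = 7.74e-08). Emp1, a membrane protein, fell in both treatments. Emp1 was at 163, 169 and 154 CPM in the isotype libraries of 4 h and at 119, 120.1 and 143 in the FcMR libraries, and at 12 h it was at 50.9, 46.6 and 49.8 with isotype and at 12.04, 9.52 and 10.7 with FcMR. Between the times the level fell by 3.56 on the log2 scale with FcMR and fell by 1.72 with isotype, and the change was −1.84 (SE 0.18, adjusted p = 2.16e-05). Tnfsf13, the B cell factor APRIL, was at 23.9, 17.2 and 22.7 CPM with isotype and 7.05, 8.21 and 6.36 with FcMR at 12 h, and its groups overlapped at 4 h. Its change of −1.88 (SE 0.43, adjusted p = 0.0183) was not called without FcMR 4 h replicate 1 or isotype 12 h replicate 1, with an adjusted p of at most 0.0558, and with the 12 libraries alone. Usp12, a deubiquitinase, fell to a common level at 12 h. Usp12 was at 146, 150.3 and 145 CPM in the isotype libraries of 4 h and at 239.7, 251 and 242 in the FcMR libraries, and at 12 h it was at 103, 106 and 101 with isotype and at 98.5, 101 and 105 with FcMR. FcMR was higher at 4 h alone, by 0.73, and the change was −0.75 (SE 0.08, adjusted p = 3.78e-05), not called with the authors' factors (adjusted p = 0.0946).

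The sign of the FcMR effect turned in 47 called genes, from higher at 4 h to lower at 12 h in 33 and the other way in 14, and 38 of the 47 were among the genes called in all 9 other fits. Mxd1, a partner of MAX that opposes MYC, is one. Mxd1 was at 105, 96.5 and 117 CPM in the isotype libraries of 4 h and at 232, 203 and 185 in the FcMR libraries, and at 12 h it was at 104, 102 and 92.4 with isotype and at 66.8, 64.7 and 56.7 with FcMR. The isotype levels overlapped between the times, and FcMR lay above them at 4 h and below them at 12 h. The effects were 0.96 and −0.67, and the change was −1.63 (SE 0.14, adjusted p = 5.6e-06). Coro2a, an actin-binding coronin, and Ehd4, an endocytic ATPase, had isotype levels that rose while FcMR levels fell. Coro2a was at 78.6, 80.5 and 85.97 CPM in the isotype libraries of 4 h and at 127, 136 and 114 in the FcMR libraries, and at 12 h it was at 127, 108 and 105 with isotype and at 61.2, 71.3 and 68.97 with FcMR. Ehd4 was at 117, 122 and 128 CPM in the isotype libraries of 4 h and at 220.2, 204 and 192 in the FcMR libraries, and at 12 h it was at 152, 142 and 145 with isotype and at 89.03, 103 and 94.03 with FcMR. Both genes were apart between treatments at both times, in opposite order, with changes of −1.38 (SE 0.13, adjusted p = 2.16e-05) and −1.36 (SE 0.12, adjusted p = 5.6e-06). The same turn from higher to lower was called for Tnc, an extracellular matrix protein, from 1.16 to −1.04, for Jaml, an adhesion molecule of leukocytes, from 0.78 to −1.34, and for Pgf, placental growth factor, from 0.75 to −1.19. It was also called for Prr5l, a partner of mTOR complexes, from 0.40 to −1.02, and for Pdcd1lg2, the immune checkpoint ligand PD-L2, from 0.63 to −0.69. Cd300ld3, a surface receptor gene of the CD300 cluster, went from 0.78 to −1.36. Cd300ld3 was at 2.73, 1.44 and 3.01 CPM in the isotype libraries of 4 h and at 4.25, 3.54 and 5.22 in the FcMR libraries, and at 12 h it was at 7.07, 5.28 and 6.00 with isotype and at 2.64, 1.83 and 2.62 with FcMR. Its groups were apart at both times. Acp2, a lysosomal acid phosphatase, turned the other way. Acp2 was at 186, 197 and 198 CPM in the isotype libraries of 4 h and at 174, 171 and 173 in the FcMR libraries, and at 12 h it was at 258, 254 and 265 with isotype and at 414, 403 and 415 with FcMR. FcMR was slightly below isotype at 4 h (−0.17) and above it at 12 h (0.67), and the change was 0.83 (SE 0.08, adjusted p = 1.68e-05).

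In a minority of genes the isotype level alone was called between the times. Cd300c2, another receptor gene of the CD300 cluster, was one of them. Cd300c2 was at 110.4, 100.1 and 99.5 CPM in the isotype libraries of 4 h and at 83.1, 88.6 and 82.2 in the FcMR libraries, and at 12 h it was at 192, 187 and 196 with isotype and at 93.3, 85.9 and 84.3 with FcMR. Isotype 12 h was the high group, and FcMR levels of 4 h and 12 h overlapped. The isotype level rose by 0.89 and the FcMR level differed by 0.05, and the change was −0.84 (SE 0.12, adjusted p = 0.000545). Ksr2, a scaffold of the Ras to ERK pathway, showed the same pattern, at 13.6, 12.6 and 11.7 CPM with isotype at 12 h and 1.12 to 3.25 CPM in the other groups, and its change was −1.61 (SE 0.24, adjusted p = 0.000849). Rasgrp1, an activator of Ras, fell with isotype. Rasgrp1 was at 63.6, 69.6 and 54.5 CPM in the isotype libraries of 4 h and at 104, 100.1 and 100.4 in the FcMR libraries, and at 12 h it was at 29.4, 33.6 and 30.5 with isotype and at 135, 109.8 and 118 with FcMR. Its groups were apart at both times, and its effect went from 0.70 to 1.96, a change of 1.26 (SE 0.18, adjusted p = 0.000689). Samhd1, a dNTP hydrolase of myeloid cells, rose by 0.24 with isotype and fell by 0.64 on the log2 scale with FcMR, and its change of −0.88 (SE 0.11, adjusted p = 0.000206) was not called with the authors' factors (adjusted p = 0.117). Cd300c2, Ksr2 and Rasgrp1 kept their calls in all 9 other fits and all 12 fits without 1 library.

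Of the 62 named genes called for the change, 41 kept the call in all 9 other fits and in all 12 fits without 1 library, and 21 lost it in at least 1. Of the named genes, 28 overlap another gene in the GENCODE M21 annotation, 23 of them one on the opposite strand, among these Il1b, Ereg, Mamdc2, Edn1, Ccl2, Adgb and Slc7a2. No source used here states that the counting used strand, so reads of such partners cannot be told apart.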

How the data were processed

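Gene expression was measured by RNA-seq (TruSeq RNA kit v2, 75-base single-end reads on a HiSeq1500, per the labels' protocols). The deposited raw table holds estimated counts per gene as whole numbers (23250 genes, each with at least 10 counts over the libraries). The deposited normalized table holds a linear expression signal per gene. It served only for the alternative with the authors' factors (raw divided by normalized, per gene and library). CASAVA 1.8.2, kallisto 0.44.0, DESeq2 and the builds mm10 and GRCm38 are named without roles per the submitters' processing notes. That the counts are estimates is inferred from the naming of kallisto. The plan had assumed counts, and the same test was used. Of the gene IDs, 23206 were matched to symbols of GENCODE M21 (GRCm38), 21250 of them with the version.

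edgeR 4.0.16 (R 4.3.3, quasi-likelihood test) was fitted to all 21 libraries with a coefficient per group, TMM factors and filterByExpr (minimum count 10), which left 13468 genes. Benjamini-Hochberg adjusted p-values cover all of them, and a gene was called under 0.05. Values are CPM after TMM scaling. DESeq2 1.42.0 and limma 3.58.1 (voom) were alternatives, beside RLE factors, other filters, the 12 libraries alone, the replicate number as a block, GC correction (loess, span 0.3) and leaving out libraries. The contrast was also run on counts simulated from the means and dispersions of the finished fit. Those counts held no GC tilt, and their outcome is not given here. Named genes are the 10 highest and 10 lowest called changes at a mean log2 CPM of at least 1 (no predicted models or pseudogenes), the 6 smallest p-values, up to 2 called members each way per list (or the smallest p-value), 3 per class of moved levels, and 6 genes by name. Genes named beside these are called list members and were chosen after their values were seen. The 17 gene lists, 8 marker lists, comparison and named genes were chosen with earlier results of these data known. One called list member is not reported here. Floors account for counting error alone, because reads without molecular identifiers are not independent molecules.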

Additional observations from a re-analysis of the deposited data

Results flagged for a closer look

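The 726 genes called for the change of the FcMR effect are genes whose effect differed between the 2 times by the test of that difference, so each of them meets the condition for a closer look, since it is the comparison itself. Among the named genes, those whose effect also had opposite signs at the 2 times, with each sign called, were Tnc (change −2.20), Cd300ld3 (−2.14), Jaml (−2.12), Pgf (−1.94), Mxd1 (−1.63), Prr5l (−1.42), Coro2a (−1.38), Ehd4 (−1.36), Pdcd1lg2 (−1.32) and Acp2 (0.83). All values are log2 changes from 4 h to 12 h. These 10 genes kept their calls in all 9 other fits.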

How the results depend on the processing

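The 726 calls (356 higher, 370 lower) numbered 349 with no filter on low counts (76 higher, of 23250 genes, whose median change was −0.0756), 418 with the authors' factors (119 higher) and 359 with the 12 libraries alone (89 higher). RLE factors gave 226 higher calls and DESeq2 576 lower ones. GC correction gave 1702 (794 higher, 908 lower), GC correction with the 12 libraries alone 1312 (558 and 754) and the range of library numbers as a covariate 1417 (644 and 773), the last pair chosen after seeing the data. Leaving out 1 library gave 323 to 1422 calls (107 to 688 higher, 198 to 734 lower). The lowest count came without isotype 12 h replicate 1 and the highest without isotype 4 h replicate 3, and the cause was not tested. No called gene with a value changed direction under RLE factors, DESeq2, limma-voom, GC correction or the covariate, and 2 did with the authors' factors. For the covariate this was largely set by its balance over the 4 groups. Replicate numbers did not pair the libraries: same-numbered libraries of FcMR 4 h and isotype 4 h deviated together at a mean correlation of −0.0708 and those of FcMR 12 h and isotype 12 h at 0.106, and no label ties a number to a mouse or day. Fitted with the number as a replicate block, 798 genes were called, and with GC correction and the replicate block 1880 (853 higher, 1027 lower). Of 1700 recomputed values of the named genes, 1500 stayed on their side of the threshold, 174 lost the call and 26 gained it, and none changed direction while called. Depth limits genes near 3 counts, such as Ifnb1, and Il23a and Ereg in isotype 12 h replicate 2.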
